A study of Rattus norvegicus with 30 samples.

Results

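The genes described here are 43 cell cycle and DNA replication genes, taken by gene symbol from the probe annotation: 15 genes of DNA replication, 24 genes of mitosis and 4 regulators of the entry into and passage through the cycle. Of these 43, 41 had at least 1 probe set that the annotation pairs with that gene alone, and all 41 passed the filter on dim probe sets, among 12451 genes tested in the whole series. The 41 comprise 14 replication genes, 23 mitosis genes and 4 regulators, measured by 59 tested probe sets out of 61. Rrm2 has no value here because its probe sets are shared with another gene in the annotation, and Tpx2 is not listed in it. RNA came from hearts of male rats of the Crl:Wi(Han) strain that received isoproterenol, an agonist of beta-adrenergic receptors, or vehicle; the labels used here state no route and no number of doses. Vehicle animals formed groups of 3 arrays at 1, 3, 24 and 72 h, and isoproterenol animals formed groups of 5, 4, 4 and 5 arrays at the same times. The labels give the dose as 0.5 mg/kg/ml, and the labelled last time of 72 h was followed although the design text names 48 h. The labels used here state no age and no allele for any group. Values are normalized log2 intensities of Affymetrix arrays, a change is isoproterenol minus vehicle of the same time on that scale, and values after ± are standard errors unless SD is written.

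Cells copy their DNA in S phase and divide in mitosis. Before S phase the loading factor Cdt1 places the ring of Mcm2, Mcm3, Mcm4, Mcm5, Mcm6 and Mcm7, the replicative helicase, on DNA. In S phase Pcna, the sliding clamp, holds the polymerases, Fen1 trims the lagging strand, and Rrm1, Tyms, Tk1 and Dut serve nucleotide supply. Cyclins D and E and the factor E2F1 act at the entry into S phase, where E2F factors bind promoters of replication genes. Mitotic genes such as Ccnb1, Cdk1, Plk1 and Aurkb come later in the cycle, and many of their promoters hold CHR and CCAAT elements. The CHR element is read by the DREAM complex and by the MuvB complex with B-Myb and Foxm1. In the adult heart most cardiomyocytes have left the cycle, while fibroblasts, endothelial cells and macrophages can divide. In whole heart RNA, a change in the number of cells of a type and a change in RNA per cell cannot be told apart.

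The promoters of the replication and mitosis genes differed in the letters they hold, and 4 of them are shown as examples. Mcm5 and Cdt1 differed between 24 and 72 h in the test below. Of these Mcm5 is shown, since the 2 E2F matches of Cdt1 lie after the start, outside the stretches shown. Mcm6 had the largest change of the replication genes at 24 h, and Mki67 and Ect2 had the largest of the mitosis genes at 72 h. RefSeq promoters of the GRCr8 build, 250 bases before to 50 after the start, were matched for 32 of the 43 genes; the other 11 were Aurkb, Ccna2, Ccnd1, Ccne2, E2f1, Foxm1, Mcm4, Racgap1, Rrm2, Tpx2 and Ube2c. Motifs were searched on both strands as TTTCGCGC, TTTGGCGC or TTTCCCGC for an E2F site, TTTGAA or TTCGAA for a CHR element and CCAAT for a CCAAT box. E2F sites on opposite strands can overlap, as can a CHR element and a CCAAT box. The stretches below are the 250 bases before the start, written 5′ to 3′ in the direction of the gene. Capitals mark every match to the 3 motifs. Mcm5 lies at chr19:13488563-13488812 on the plus strand, Mcm6 at chr13:42404353-42404602 on the minus strand, Mki67 at chr1:199952594-199952843 on the minus strand and Ect2 at chr2:111966627-111966876 on the minus strand.
Mcm5: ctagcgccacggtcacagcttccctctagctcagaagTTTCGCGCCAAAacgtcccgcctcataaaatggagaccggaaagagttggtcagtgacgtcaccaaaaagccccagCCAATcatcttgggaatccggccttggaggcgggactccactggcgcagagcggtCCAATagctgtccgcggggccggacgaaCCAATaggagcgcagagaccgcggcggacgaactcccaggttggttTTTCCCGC
Mcm6: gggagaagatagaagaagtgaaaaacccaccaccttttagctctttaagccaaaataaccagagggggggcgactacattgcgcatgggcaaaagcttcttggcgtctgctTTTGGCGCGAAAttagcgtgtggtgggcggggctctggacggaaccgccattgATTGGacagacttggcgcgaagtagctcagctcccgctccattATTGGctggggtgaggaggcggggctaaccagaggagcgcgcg
Mki67: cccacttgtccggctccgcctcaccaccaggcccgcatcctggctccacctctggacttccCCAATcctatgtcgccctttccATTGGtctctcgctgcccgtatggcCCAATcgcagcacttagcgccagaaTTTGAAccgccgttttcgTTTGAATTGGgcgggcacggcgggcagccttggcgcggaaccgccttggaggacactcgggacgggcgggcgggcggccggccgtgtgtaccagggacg
Ect2: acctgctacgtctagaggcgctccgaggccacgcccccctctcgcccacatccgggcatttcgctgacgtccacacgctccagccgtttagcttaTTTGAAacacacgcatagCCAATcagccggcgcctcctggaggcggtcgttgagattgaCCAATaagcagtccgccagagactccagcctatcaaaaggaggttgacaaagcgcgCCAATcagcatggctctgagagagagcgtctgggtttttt
The printed stretch of Mcm5 holds 3 E2F matches and 3 CCAAT matches, and that of Mcm6 holds 2 of each. The stretch of Mki67 holds 2 CHR matches and 4 CCAAT matches, and that of Ect2 holds 1 CHR match and 3 CCAAT matches. Neither mitosis stretch holds an E2F match, and neither Mcm stretch holds a CHR match.

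Over the full windows, an E2F match was found in 7 of 13 replication promoters (53.8%), in 1 of 19 mitosis promoters (5.26%) and in 501 of 27457 promoters of all genes (1.82%). The 7 were Cdt1, Mcm2, Mcm3, Mcm5, Mcm6, Mcm7 and Tyms, and the mitosis gene was Cdk1. A CHR match was found in 3 of 13 replication promoters (23.1%), in 14 of 19 mitosis promoters (73.7%) and in 19.5% of all promoters. CCAAT was found in 7 of 13 (53.8%), 14 of 19 (73.7%) and 37.7% respectively. The 3 replication genes with a CHR match were Mcm2, Mcm7 and Rrm1. A match is a description of letters, and binding was not measured in these data.

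All arrays were set on a common scale because their median intensity ranged from 21.2 to 70.4. The array numbers of vehicle (4 to 21) and isoproterenol (33 to 62) do not interleave, so an effect of the order of arrays and one of treatment cannot be told apart. At 24 h the isoproterenol arrays had median intensities from 35.2 to 70.4 against 29.7 to 49.3 in the vehicle arrays, and the 3′ minus 5′ difference of the beta-actin control probe sets, a sign of RNA length, was 0.87 ± 0.37 (SD, n = 4) against 1.64 ± 0.25 (SD, n = 3). At 72 h that difference was 1.29 ± 0.42 (SD, n = 5) against 1.47 ± 0.56 (SD, n = 3). Replicate 3 of the 24 h isoproterenol group and replicate 1 of the 72 h isoproterenol group stood apart from their groups for these genes, so counts are given with and without them. The heart muscle markers were bright throughout: 11 measured cardiomyocyte markers summed to between 80000 and 98800 units of normalized intensity on every array.

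At 1 and 3 h the cell cycle genes had not risen as a group. At 1 h, 1 of 41 rose (2.37% of all genes tested did) and 0 fell (1.04% of all genes), and the median change of the 41 was -0.21 against -0.03 over all genes tested. The gene that rose was Pcna. Its values were 9.62, 9.41 and 9.59 in the vehicle arrays and 10.54, 10.37, 10.29, 10.16 and 9.99 in the isoproterenol arrays. Every isoproterenol array was above every vehicle array, which held for 7.49% of all genes at this time. The change was 0.73 ± 0.17 (1.66-fold, limma with Benjamini-Hochberg adjustment, adjusted p = 0.00935). The call was lost when arrays were centred on their medians (limma adjusted p = 0.175), without normalization (0.763) and without vehicle replicate 2 (0.0871). In 4 of 41 genes (Mcm7, Ect2, Plk1 and Ccnd1) every isoproterenol array was below every vehicle array, beside 8.57% of all genes, and none of these 4 passed the test. Mcm7 was at 7.22, 7.31 and 7.16 in vehicle and at 6.62, 6.56, 6.62, 6.88 and 6.73 after isoproterenol, a change of -0.55 ± 0.23 (limma adjusted p = 0.293). With only the compared groups in the fit, Mcm7 was called lower.

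At 3 h no member passed the test in limma, beside 6.95% of all genes higher and 6.33% lower, and 5 of 41 had an unadjusted p under 0.05: Pcna with a positive change and Mcm3, Kif11, Plk1 and Top2a with negative ones. Pcna was at 9.75, 9.90 and 9.57 in vehicle and at 9.85, 10.34, 10.32 and 10.40 after isoproterenol, so the groups overlapped through isoproterenol replicate 1 (change 0.49 ± 0.18, limma adjusted p = 0.0725). Mcm3 was at 5.83, 5.49 and 5.55 in vehicle and at 4.40, 5.21, 4.34 and 4.47 after isoproterenol. All 4 isoproterenol values of Mcm3 were lower than every vehicle value, with a change of -1.02 ± 0.36 (limma adjusted p = 0.0605). Such a separation downwards held for 3 of 41 members (Mcm3, Kif11 and Ccna2) and for 11.2% of all genes, and one upwards for 0 of 41 and for 9.53% of all genes. A single member passed without isoproterenol replicate 1 (Pcna), 2 (Mcm3) or 4 (Plk1). Another probe set was called lower at 3 h for Ccnd1 and for Tk1, 1 of 3 in each gene. Over the 3 probe sets the changes ranged from -1.02 to -0.33 for Ccnd1 and from -0.70 to -0.14 for Tk1.

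At 24 h the replication genes had the largest median change of the 4 times, 1.24. Of 41 members 23 rose and 0 fell, where 10% of all genes tested rose and 7.16% fell. The 23 were 9 of 14 replication genes, 11 of 23 mitosis genes and 3 of 4 regulators. All 41 changes were positive, with a median of 0.87 against -0.01 over all genes tested. In 23 of 41 members every isoproterenol array lay above every vehicle array, beside 13% of all genes, and in 0 every one lay below (12.4% of all genes).

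**Figure D1:**
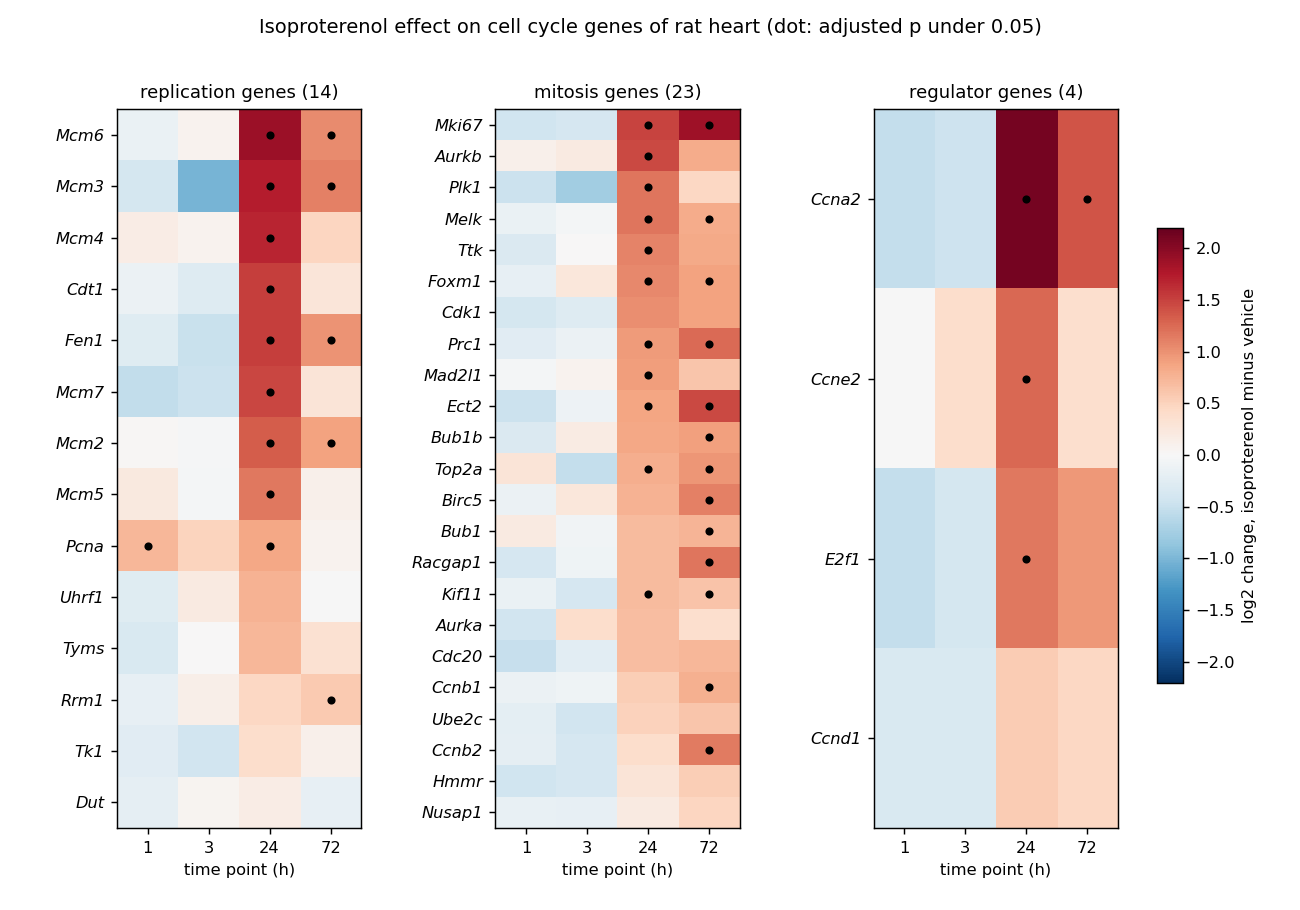
Log2 change, isoproterenol minus vehicle, of the 41 measured genes (rows, ordered by the change at 24 h) at 1, 3, 24 and 72 h (columns), by role. Colour gives the change from blue (lower) to red (higher) and a black dot marks a limma adjusted p under 0.05. Dots fill the upper replication rows at 24 h, where 9 of 14 passed, and most mitosis rows at 72 h, where 13 of 23 passed.

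The helicase and its loader rose together at 24 h, since each of Mcm2, Mcm3, Mcm4, Mcm5, Mcm6, Mcm7 and Cdt1 passed the test. Mcm6 was at 6.0, 6.29 and 6.54 in the vehicle arrays and at 8.46, 8.32, 7.41 and 8.44 in the isoproterenol arrays, with no overlap and with replicate 3 lowest. Its change of 1.88 ± 0.25 (3.68-fold, limma adjusted p = 9.38e-06) was the largest of the replication genes. Mcm3 was at 5.52, 5.67 and 5.86 in vehicle and at 7.57, 7.84, 6.37 and 7.88 after isoproterenol. Mcm4 was at 6.72, 6.33 and 5.99 and at 8.37, 8.04, 7.17 and 8.56. Both subunits had separate groups with replicate 3 nearest to vehicle, and they rose by 1.73 ± 0.36 (limma adjusted p = 0.00145) and 1.68 ± 0.29 (0.000224).

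Mcm7 was at 7.17, 6.98 and 6.94 in vehicle and at 8.75, 8.91, 7.57 and 8.76 after isoproterenol, a change of 1.47 ± 0.24 (limma adjusted p = 0.000154). Mcm5 was at 6.34, 6.52 and 6.60 and at 7.72, 7.95, 7.16 and 7.76 (change 1.16 ± 0.18, limma adjusted p = 8.85e-05). Mcm2 changed by 1.32 ± 0.27 (limma adjusted p = 0.00147). In each of the 6 helicase genes the isoproterenol arrays were all above the vehicle arrays. Cdt1, the loader, was at 5.95, 6.04 and 6.17 in vehicle and at 7.77, 7.76, 6.92 and 7.84 after isoproterenol. Replicate 3 lay between the vehicle arrays and the other 3 isoproterenol arrays, and the change was 1.52 ± 0.21 (2.87-fold, limma adjusted p = 1.63e-05).

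Among genes that act at the fork, Fen1, the flap endonuclease, was at 5.33, 5.33 and 5.60 in vehicle and at 7.10, 7.14, 6.43 and 7.05 after isoproterenol (change 1.51 ± 0.33, limma adjusted p = 0.00214). Pcna was at 10.00, 9.71 and 9.67 and at 10.73, 10.90, 10.15 and 10.83 (change 0.86 ± 0.18, limma adjusted p = 0.00147). Neither gene's groups overlapped. Of the genes of nucleotide supply, Rrm1, Tyms, Tk1 and Dut had changes from 0.16 to 0.73 and none passed the test. Uhrf1, which guides maintenance methylation, did not pass either (0.76, limma adjusted p = 0.0997). Rrm1, Tyms and Uhrf1 had an unadjusted p under 0.05, and all 3 passed without isoproterenol replicate 3. Dut, the dUTPase, was at 9.52, 9.36 and 9.27 in vehicle and at 9.60, 9.50, 9.47 and 9.59 after isoproterenol, so the groups overlapped (change 0.16 ± 0.11, limma adjusted p = 0.409). Tk1, thymidine kinase, was at 5.92, 6.50 and 6.33 and at 6.96, 6.88, 5.97 and 6.76. Isoproterenol replicate 3 of Tk1 lay within the vehicle range, and the change was 0.39 ± 0.24 (limma adjusted p = 0.325). The Rrm2 subunit of the reductase, which pairs with Rrm1, has no value here.

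**Figure D2:**
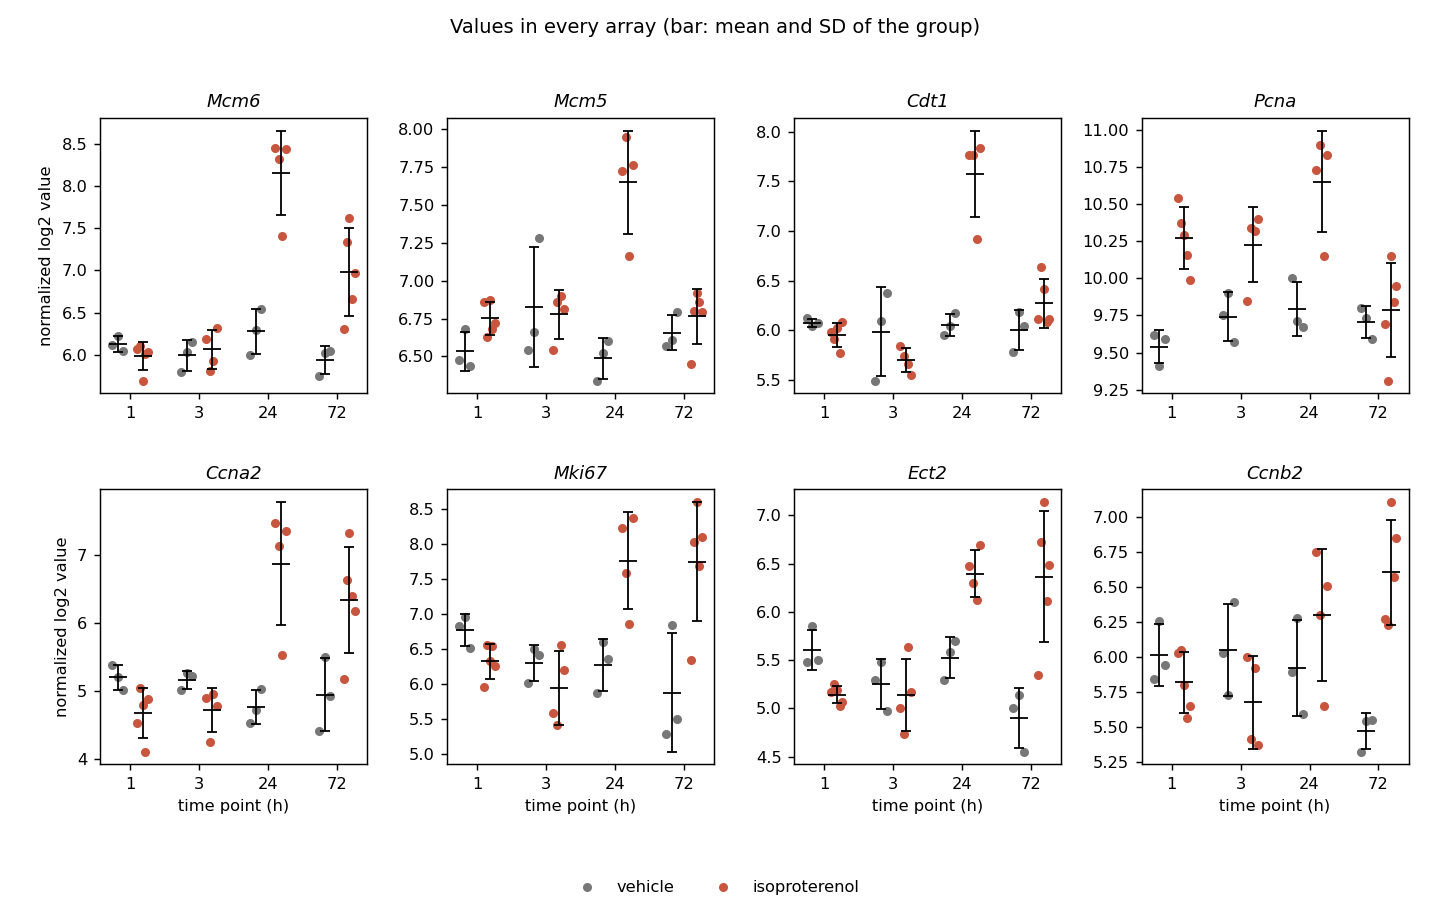
Normalized log2 value (vertical axis, its own range in each panel) of 8 genes in every array at 1, 3, 24 and 72 h (horizontal axis), grey for vehicle and red for isoproterenol, with the mean and SD of each group as bars. Mcm5 and Cdt1 stand above vehicle at 24 h and are back near it at 72 h, whereas the means of Mki67 and Ect2 stay above it and the Ccnb2 arrays are all above vehicle at 72 h.

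Of the regulators, cyclin A2, which partners Cdk2 in S phase and Cdk1 later, had the largest change of all 41 genes at 24 h. Ccna2 was at 4.53, 4.73 and 5.03 in vehicle and at 7.47, 7.12, 5.53 and 7.35 after isoproterenol. The groups were separate, replicate 3 lay nearest to vehicle, and the change was 2.10 ± 0.38 (4.30-fold, limma adjusted p = 0.000418). Cyclin E2 (Ccne2) was at 5.61, 5.72 and 5.38 and at 6.86, 6.88, 6.64 and 6.95, a narrow isoproterenol group that lay above all vehicle arrays (change 1.26 ± 0.22, limma adjusted p = 0.000351). E2f1 was at 5.74, 5.29 and 4.85 and at 6.64, 6.36, 6.12 and 6.66 (change 1.15 ± 0.39, limma adjusted p = 0.0484). Cyclin D1 (Ccnd1), the cyclin that answers growth signals, was at 8.48, 8.40 and 8.69 in vehicle and at 9.28, 9.49, 8.41 and 9.15 after isoproterenol. Its replicate 3 lay within the vehicle range and the change of 0.56 ± 0.21 did not pass (limma adjusted p = 0.0727). A second Ccne2 probe set had a change of 0.04 and was not called.

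Of the 23 mitosis genes 11 rose at 24 h and 12 did not pass, with a median change of 0.80 over all 23. Mki67, the proliferation antigen that coats mitotic chromosomes, was at 5.87, 6.59 and 6.35 in vehicle and at 8.22, 7.58, 6.86 and 8.37 after isoproterenol (change 1.48 ± 0.39, 2.80-fold, limma adjusted p = 0.0105). Aurkb, the kinase of the chromosomal passenger complex, was at 4.99, 5.08 and 4.39 and at 6.42, 6.57, 5.77 and 6.33 (change 1.45 ± 0.32, limma adjusted p = 0.0029). Plk1, polo-like kinase, was at 4.98, 5.36 and 4.98 and at 6.33, 6.43, 5.87 and 6.49 (change 1.17 ± 0.31, limma adjusted p = 0.00995). In these 3 genes no array of a group reached the other group. Melk, a mitotic kinase, was at 5.10, 5.59 and 4.88 and at 6.71, 6.65, 5.52 and 6.56, and replicate 3 lay below the highest vehicle array (change 1.17 ± 0.30, limma adjusted p = 0.00923). Ttk, a kinase of the spindle checkpoint, was at 4.89, 4.59 and 4.67 and at 6.01, 5.89, 5.00 and 6.30 (change 1.08 ± 0.33, limma adjusted p = 0.0279). Foxm1, the factor that drives mitotic genes, was at 4.14, 4.95 and 4.17 and at 5.46, 5.64, 5.19 and 5.61 (change 1.05 ± 0.33, limma adjusted p = 0.0287). The Ttk and Foxm1 groups did not overlap, with replicate 3 lowest again.

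Prc1, Mad2l1, Ect2, Top2a and Kif11 rose too, by 0.69 to 0.94 on the log2 scale. The other 12 mitosis genes, among them Cdk1, Ccnb1, Ccnb2, Cdc20, Birc5, Bub1, Bub1b, Aurka, Racgap1 and Ube2c, had changes from 0.21 to 1.03 that did not pass. The smallest belonged to Nusap1 and Hmmr, which act on spindle microtubules. Nusap1 was at 6.21, 6.57 and 6.59 in vehicle and at 6.90, 6.36, 6.56 and 6.83 after isoproterenol (change 0.21 ± 0.20, limma adjusted p = 0.584), and Hmmr was at 5.47, 5.61 and 5.92 and at 5.98, 5.78, 5.70 and 6.34 (change 0.29 ± 0.23, adjusted p = 0.48). Both pairs of groups overlapped. Probe sets of 1 gene differed in call for Ccnb1, Ccne2, Kif11, Mad2l1, Top2a and Ttk at 24 h, and the second Kif11 probe set had a change of -0.03. The vehicle mean lay under the level of the filter, 5.29, for 10 of 23 mitosis genes and 2 of 14 replication genes at 24 h, and changes of such dim genes are understated on this scale.

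At 24 h, 13 of the 23 calls were kept under every alternative and with every array left out in turn: Mcm2 to Mcm7, Cdt1, Pcna, Fen1, Aurkb, Plk1, Ccne2 and Ccna2. The other 10 lost their call without at least 1 array of the time other than isoproterenol replicate 3, with limma adjusted p up to 0.216 for E2f1 without vehicle replicate 3. Isoproterenol replicate 3 was the lowest of its group for 40 of 41 members, and 32 members rose without it. Calls also grew over all probe sets of the series, where 1781 rose with that array and 2375 without it.

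At 72 h, of 41 members 19 rose and 0 fell, beside 13.2% and 8.82% of all genes. The 19 were 13 of 23 mitosis genes, 5 of 14 replication genes and Ccna2 among the 4 regulators. The median change was 0.82 for mitosis genes, 0.31 for replication genes, 0.70 for regulators and 0.01 for all genes tested. In 15 of 41 members every isoproterenol array lay above every vehicle array, beside 11.8% of all genes, and 11 of these 15 were mitosis genes. In 0 of 41 every one lay below (7.38% of all genes).

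Mki67 was at 5.28, 6.84 and 5.50 in vehicle and at 6.34, 8.02, 8.59, 7.68 and 8.09 after isoproterenol. Replicate 1 lay within the vehicle range, and the change of 1.87 ± 0.37 (3.65-fold, limma adjusted p = 0.000736) was the largest of the 41 at this time. Ect2, the exchange factor that starts cytokinesis, was at 5.01, 5.14 and 4.55 and at 5.35, 6.73, 7.14, 6.11 and 6.49 (change 1.46 ± 0.26, limma adjusted p = 0.000233). Prc1, the bundler of the central spindle, was at 5.56, 5.99 and 6.10 and at 6.33, 7.44, 7.85, 7.05 and 7.01 (change 1.25 ± 0.27, limma adjusted p = 0.00147). Ect2 and Prc1 had separate groups in which replicate 1 was lowest and replicate 3 highest. Ccna2 was at 4.42, 5.50 and 4.93 and at 5.18, 6.63, 7.31, 6.40 and 6.18, with replicate 1 inside the vehicle range (change 1.39 ± 0.36, limma adjusted p = 0.00723). Cyclin B2 (Ccnb2), a partner of Cdk1 at the entry into mitosis, was at 5.32, 5.54 and 5.55 and at 6.27, 6.23, 7.11, 6.57 and 6.85. Its groups were separate and it rose by 1.14 ± 0.24 (limma adjusted p = 0.00108).

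The other mitosis genes that rose at 72 h were Racgap1, Birc5, Top2a, Bub1b, Foxm1, Melk, Ccnb1, Bub1 and Kif11, by 0.62 to 1.17. Racgap1, the partner of Ect2 in cytokinesis, changed by 1.17 ± 0.34 and Birc5 (survivin), a passenger complex subunit, by 1.10 ± 0.29. The kinases Aurkb, Plk1 and Ttk, called at 24 h, had changes of 0.82, 0.46 and 0.84 at 72 h that did not pass. Another probe set of Kif11 had a change of -0.26, and probe sets of Ccnb1, Cdc20 and Racgap1 also differed in call.

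Among replication genes at 72 h, Mcm3, Mcm6, Fen1, Mcm2 and Rrm1 rose, by 0.58 to 1.11. Mcm6 was at 5.75, 6.02 and 6.04 in vehicle and at 6.31, 7.34, 7.62, 6.66 and 6.97 after isoproterenol, with separate groups (change 1.05 ± 0.24, limma adjusted p = 0.00213). The other 9 had changes from -0.18 for Dut to 0.48 for Mcm4 and did not pass. Pcna was at 9.80, 9.73 and 9.59 in vehicle and at 9.69, 9.31, 10.15, 9.84 and 9.95 after isoproterenol, so the groups overlapped (change 0.08 ± 0.17, limma adjusted p = 0.798). E2f1, Ccnd1 and Ccne2 had changes of 0.95, 0.46 and 0.36 that did not pass either. E2f1 was at 4.47, 5.73 and 4.85 and at 5.25, 6.27, 6.49, 6.16 and 5.68, Ccnd1 at 8.27, 8.66 and 8.50 and at 8.65, 9.11, 9.06, 8.87 and 8.97, and Ccne2 at 5.31, 5.90 and 5.37 and at 5.43, 6.01, 6.20, 5.70 and 6.11, with overlap in each.

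Of the 19 calls at 72 h, 7 were kept under every alternative and with every array left out in turn: Mcm6, Ccnb2, Mki67, Top2a, Birc5, Prc1 and Ect2. The count was 25 without isoproterenol replicate 1, which was lowest for 32 of 41 members, 10 without isoproterenol replicate 3, which was highest for 31 of 41, 8 without vehicle replicate 1 and 9 without vehicle replicate 3. Over all probe sets of the series, 2275 rose with every array and 2798 without isoproterenol replicate 1. The series count was 1621 without isoproterenol replicate 3, 1484 without vehicle replicate 1 and 1457 without vehicle replicate 3.

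The median change of the 14 replication genes was above that of the 23 mitosis genes at 24 h (1.24 and 0.80) and below it at 72 h (0.31 and 0.82). Within each array, the median difference of the replication genes from vehicle minus that of the mitosis genes was 0.52, 0.54, 0.37 and 0.37 in the 4 isoproterenol arrays of 24 h. It was -0.20, -0.43, -0.79, -0.51 and -0.57 in the 5 of 72 h. The vehicle arrays of these times lay between -0.10 and 0.14. Each vehicle array was set against the mean of its own group, which holds its value near 0, so this is not an independent range. Every isoproterenol array was above these vehicle values at 24 h and below them at 72 h, the low arrays included. At 1 and 3 h the isoproterenol arrays ranged from -0.12 to 0.30. The replication median was above the mitosis median in 15 of 15 alternatives at 24 h and below it in 16 of 16 at 72 h. The vehicle mean lay under the filter level for 10 of 23 mitosis genes and 2 of 14 replication genes at 24 h. At 72 h it did so for 9 of 23 and 2 of 14. Changes of such dim genes are understated on this scale, and the part of this in the order of the lists was not tested. This order of lists is a description with no test. At 24 h it did not hold in the wider lists described below: the median change was 0.58 over 36 other replication genes and 0.65 over 40 other mitosis genes, and per array 0.65, 0.72, 0.24 and 0.69 against 0.88, 0.72, 0.23 and 0.79. At 72 h the wider lists had 0.31 and 0.60, with the other replication genes lower in 4 of the 5 isoproterenol arrays and higher in replicate 1 (0.15 against 0.09).

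**Figure D3:**
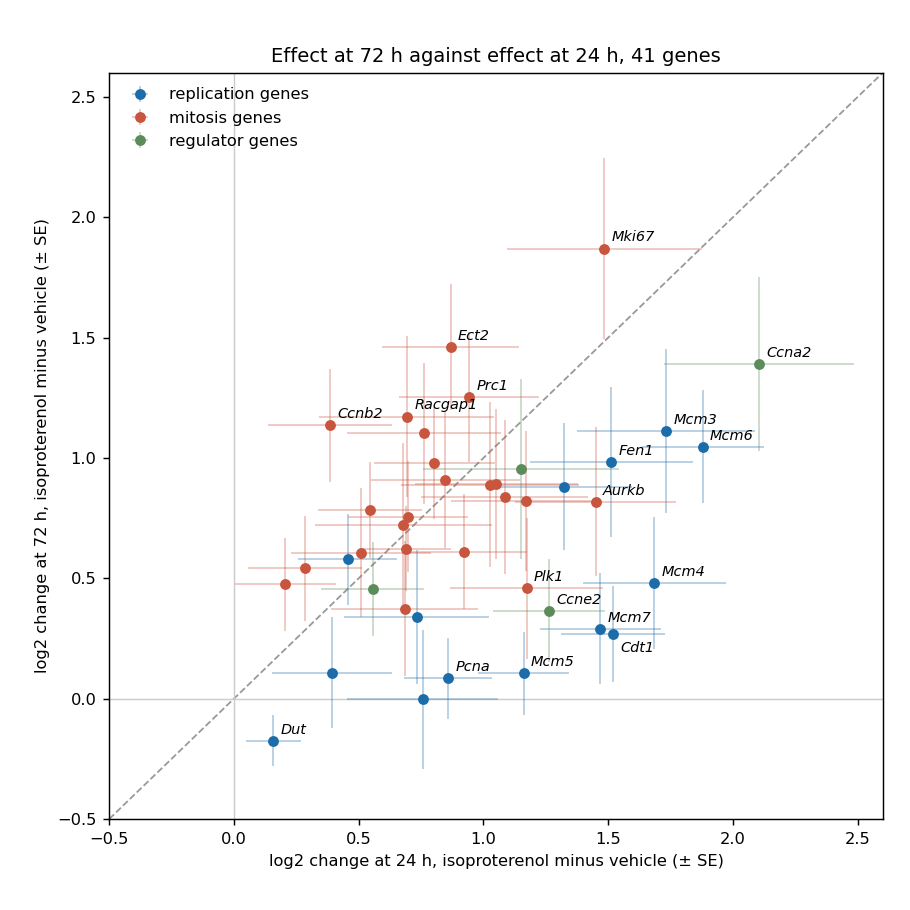
Log2 change at 72 h (vertical axis) against that at 24 h (horizontal axis) for the 41 genes, with bars of 1 SE and a dashed line of equal change. Replication genes (blue) lie below the line except Rrm1, whereas 14 of 23 mitosis genes (red) lie above it, led by Ccnb2 at 0.38 and 1.14.

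Tested gene by gene, the effect differed between 72 and 24 h for 2 of 41 members, both lower, where 0.875% of all genes were lower and 1.84% higher. Cdt1 had -1.25 ± 0.29 (limma adjusted p = 0.0163) and Mcm5 -1.05 ± 0.25 (adjusted p = 0.0201). At 72 h Cdt1 was at 5.78, 6.18 and 6.04 in vehicle and at 6.11, 6.64, 6.41, 6.08 and 6.11 after isoproterenol, and Mcm5 was at 6.57, 6.61 and 6.79 and at 6.45, 6.80, 6.92, 6.86 and 6.79. Both genes had overlapping groups at 72 h after separate groups at 24 h. Of 14 replication genes 13 had a smaller change at 72 than at 24 h (median -0.69), with an unadjusted p under 0.05 in 7. Of 23 mitosis genes 14 had a larger one (median 0.06, against 0.01 over all genes), with an unadjusted p under 0.05 in 1, Ccnb2 (0.75, limma adjusted p = 0.307). So no single mitosis gene was shown to differ between 24 and 72 h. The call of Cdt1 was lost without normalization (limma adjusted p = 0.296), with only the compared groups in the fit (0.0593) and without vehicle replicate 3 of 72 h (0.0547). That of Mcm5 was lost in the same 3 settings (0.761, 0.0628 and 0.0774) and also without vehicle replicate 1 (0.0551) or 2 (0.0502) or isoproterenol replicate 2 (0.0554) of 24 h, while 5 members passed without isoproterenol replicate 3 of 24 h. These 5 were all lower, and over all probe sets 364 were lower without that array against 193 with it.

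By calls at the separate times, 5 replication genes passed at 24 h and not at 72 h (Cdt1, Mcm4, Mcm5, Mcm7 and Pcna), 4 at both times (Fen1, Mcm2, Mcm3 and Mcm6) and 1 at 72 h and not at 24 h (Rrm1). Of the mitosis genes 4 passed at 24 h and not at 72 h (Aurkb, Mad2l1, Plk1 and Ttk), 7 at both (Ect2, Foxm1, Kif11, Melk, Mki67, Prc1 and Top2a) and 6 at 72 h and not at 24 h (Birc5, Bub1, Bub1b, Ccnb1, Ccnb2 and Racgap1). Neither time called Dut, Tk1, Tyms, Uhrf1, Ccnd1, Aurka, Cdc20, Cdk1, Hmmr, Nusap1 or Ube2c. These are calls of the probe set that stands for the gene. Another probe set was called higher for Ccnb1 at 24 h (1.14) and for Cdc20 at 72 h (1 of 5, changes from 0.01 to 1.20). Other probe sets of Ccne2, Kif11, Mad2l1, Top2a and Ttk at 24 h were not called, nor were those of Ccnb1, Kif11 and Racgap1 at 72 h. Such a split of calls does not test the difference between times, which passed only for Cdt1 and Mcm5 above.

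Of the 41 members only Pcna was called higher before 24 h, and the effect at 24 h was tested against that at 3 h. The effect at 24 h exceeded that at 3 h in 13 of 41 members, and was smaller in 0, beside 4.83% and 3.49% of all genes. The 13 were Mcm2 to Mcm7, Cdt1, Fen1, Mki67, Top2a, Kif11, Plk1 and Ccna2. The other 28, among them Pcna, Ccnd1 and Tk1, did not pass. Of 3 probe sets each, however, 2 of Ccnd1 and 1 of Tk1 were called higher. For Kif11 and Top2a 1 of 2 probe sets was called. The differences ranged from 1.06 for Kif11 to 2.75 ± 0.51 for Mcm3 (limma adjusted p = 0.00091), and the change was larger at 24 h in all 41. A difference also holds the change at 3 h, which for Mcm3 was -1.02 and not called, beside 1.73 at 24 h. The mean of the 3 h isoproterenol group lay under the filter level for 17 of 41 members, Mcm3, Fen1, Plk1 and Ccna2 among them. The count of 13 became 21 without isoproterenol replicate 3 of 24 h, when 1387 probe sets of the whole series were called higher against 872 with every array. Mcm2, Mcm4, Mki67 and Top2a lost their call without at least 1 array, and all 4 did so without vehicle replicate 2 of 3 h. Among the vehicle groups no member differed over time in limma's F test, beside 0.0562% of all genes, and 1 of 41, Rrm1, had an unadjusted p under 0.05 (adjusted p = 0.372).

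Other genes of the same processes were counted from lists of known members. Of 36 measured other replication genes, 15 rose and 1 fell at 24 h, beside 10% and 7.16% of all genes. At 72 h 5 of the 36 rose and 3 fell, which is near the 13.2% and 8.82% of all genes. The largest rises at 24 h were those of Gmnn (geminin, the inhibitor of Cdt1, 1.78 ± 0.32), the primase subunit Prim1 (1.58 ± 0.25), the polymerase epsilon subunit Pole2 (1.51 ± 0.33) and the clamp loader subunit Rfc4 (1.49 ± 0.25), and Orc5 of the origin recognition complex fell by 0.52. The single genes called at 72 h included Prim1 (0.96), Slbp, which binds histone mRNA (0.86), Gins4 (0.69) and Rfc2 (0.59) among the higher, and Pold2, Rpa1 and Orc5 fell by 0.69, 0.59 and 0.49. Of 40 measured other mitosis genes, 12 rose and 0 fell at 24 h and 15 rose and 0 fell at 72 h. At 24 h these were led by Cks2 (1.79 ± 0.35), a subunit that binds cyclin dependent kinases, Cenpk of the kinetochore (1.61), the condensin subunit Smc2 (1.27) and its partner Ncaph (1.24). At 72 h Kif23, which works with Racgap1 in the central spindle (1.37 ± 0.34), Cks2 (1.36), Kif22 (1.28) and Kif20a (1.26) led. At 1 h 0 of 36 and 0 of 40 passed, and at 3 h Cenpa rose (1.03) and Pold2 and Stmn1 fell by 0.64 and 0.81.

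Genes that start or restrain the cycle included some that rose from 1 h on. Over all genes 2.37%, 6.95%, 10% and 13.2% rose at 1, 3, 24 and 72 h, and 1.04%, 6.33%, 7.16% and 8.82% fell. Myc, which drives growth genes, rose by 2.98 ± 0.33 at 1 h (limma adjusted p = 1.29e-07), 3.46 ± 0.34 at 3 h, 2.13 ± 0.34 at 24 h and 1.03 ± 0.33 at 72 h. Cdkn1a, the p21 inhibitor, rose by 1.91 ± 0.25 at 1 h (limma adjusted p = 3.31e-06) and 1.15 ± 0.26 at 3 h, and its changes of 0.47 at 24 h and 0.22 at 72 h did not pass. Of 8 measured genes in the list of kinases, D and E cyclins and Myc, Cdk4 was the other that rose, by 0.67 at 24 h and 0.82 at 72 h. Of 11 measured inhibitors and pocket proteins, Rbl1 (p107) rose by 1.78 ± 0.34 at 24 h and 1.15 ± 0.33 at 72 h, while Cdkn1c (p57), Rbl2 (p130) and Ccng2 fell by 0.83, 0.63 and 0.60 at 24 h. Cdkn2c fell by 0.89 at 1 h and rose by 0.82 at 72 h, and Ccng2 fell by 0.66 at 3 h. Of 13 measured E2F and DREAM genes, E2f5 and E2f4 rose by 1.19 and 0.50 at 3 h, where E2f2 and Tfdp2 fell by 0.69 and 0.65. In that list Tfdp1 rose by 0.49 and Tfdp2 fell by 0.97 at 24 h, and E2f6 and Tfdp2 fell by 0.55 and 0.59 at 72 h. At 24 h, 1 of 11 inhibitors and pocket proteins and 1 of 13 E2F and DREAM genes rose, near the 10% of all genes. The 1 of these 13 that fell is near the 7.16% of all genes.

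Markers of other cells moved with these genes, and their part in the result was not tested. Of 18 monocyte and macrophage markers, 13 rose at 24 h and 17 at 72 h, with none lower. Their summed normalized intensity was 2330 to 3750 in the vehicle arrays and 5350 to 16200 in the isoproterenol arrays of 24 h, and 2150 to 2680 against 4260 to 16800 at 72 h. No deposited value of these markers was 0. The isoproterenol array with the lowest macrophage median was replicate 3 at 24 h (0.85, against 1.92 to 2.56 in the others) and replicate 1 at 72 h (0.57, against 1.84 to 2.48), the arrays that were also lowest for the members. At 1 and 3 h, when no member but Pcna passed, 1 and 2 of 18 macrophage markers rose, beside 2.37% and 6.95% of all genes.

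Of 10 fibroblast markers, 1 rose (Postn, by 3.67) and 2 fell (Dcn and Dpt) at 24 h, and 8 rose at 72 h. Their summed normalized intensity was 16800 to 22800 in vehicle and 15700 to 23300 after isoproterenol at 24 h, and 16300 to 23700 against 26700 to 61200 at 72 h. Of 8 mural cell markers 1 rose at 24 h and 5 at 72 h, and of 10 endothelial markers 0 rose and 1 fell at each of these times. Over all genes 10% rose and 7.16% fell at 24 h and 13.2% and 8.82% at 72 h, so 1 of 8 and 1 of 10 are near those shares. For the counts at earlier times below, 2.37% of all genes rose at 1 h, and 6.95% rose and 6.33% fell at 3 h. Of 4 erythroid markers 1 fell at 3 h and at 24 h and 3 fell at 72 h (Slc4a1, Alas2 and Hbb), with sums of 3670 to 6080 against 5800 to 6440 in vehicle at 72 h. Of 4 neutrophil markers 1 rose at 1 h and 2 at 3 h (S100a8 and S100a9), with sums of 337 to 488 against 135 to 182 at 3 h, 0 changed at 24 h and 1 fell at 72 h. Of 5 lymphocyte markers 0 passed in limma at any of the 4 times, with an unadjusted p under 0.05 in 0 at 1 h, 3 at 3 h, 1 at 24 h and 1 at 72 h. Cardiomyocyte markers summed to 97100 to 98800 in vehicle and 80700 to 93400 after isoproterenol at 24 h, where 2 of 11 fell, and to 95400 to 96600 against 80000 to 96500 at 72 h, where 1 fell. That 1 of 11 at 72 h is near the 8.82% of all genes that fell. Within the 24 h isoproterenol group, replicate 3 was also the dimmest array (median intensity 35.2, against 57.7 to 70.4) and had a beta-actin 3′ minus 5′ difference of 1.40 against 0.55 to 0.86 in the other 3. The part of RNA length and array brightness in the result was not tested.

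**Figure D4:**
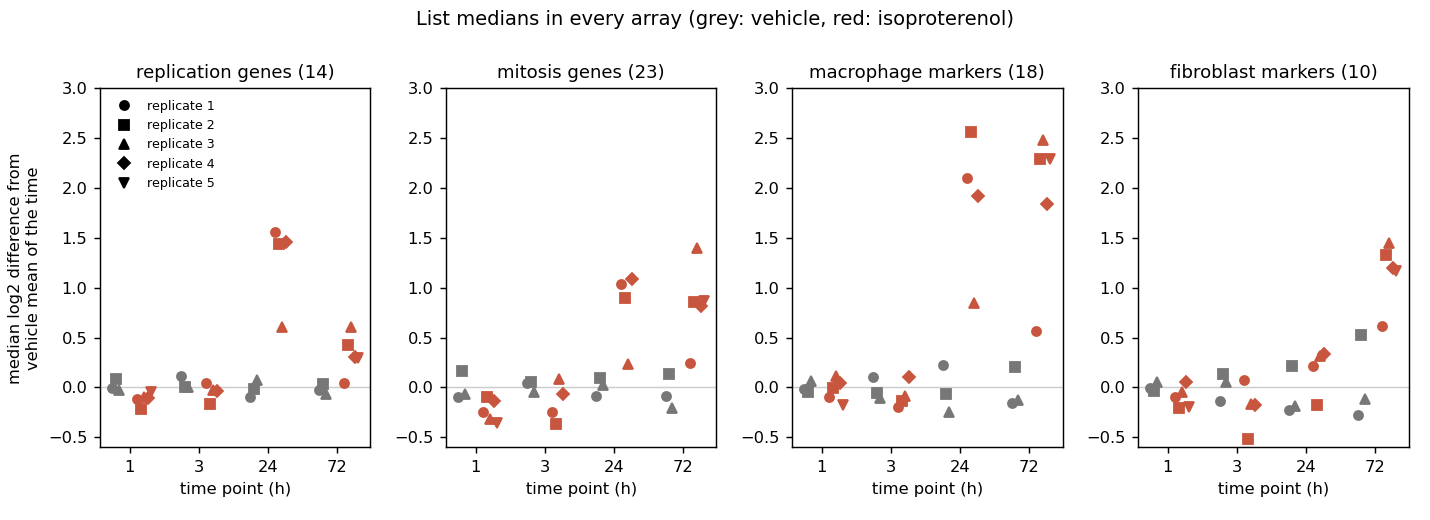
Median log2 difference from the vehicle mean of the same time (vertical axis) over 14 replication genes, 23 mitosis genes, 18 macrophage markers and 10 fibroblast markers, for every array at 1, 3, 24 and 72 h; symbols give the replicate number, grey is vehicle and red isoproterenol. Replication genes peak at 24 h (0.61 to 1.56), mitosis genes are up at 24 h (0.24 to 1.09) and 72 h (0.25 to 1.40), macrophage markers at both and fibroblast markers at 72 h (0.61 to 1.45).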

How the data were processed

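RNA of 30 heart arrays (RAT230_2) was compared. The authors deposited a table of intensity on a linear scale; how they summarised probes is not stated in the labels. Arrays are titled biological replicates, and if some shared an animal, p-values reflect technical spread. From the deposited intensity, values were taken as log2(intensity + 16) after 57 control probe sets were left out, and quantile normalized, since array medians spanned 1.22. Fold changes on this scale understate those of dim genes, and a change shared by most transcripts is removed. Probe sets at an intensity of 23 (the 40th percentile) or more in at least 3 arrays were tested, 24292 in all. With limma 3.58.1 (R 4.3.3), 8 group means were fitted with an intensity trend and 22 residual degrees of freedom; tests were two-sided, adjusted by Benjamini-Hochberg within each comparison, and called under 0.05. The probe set with the highest mean stood for a gene. The number of arrays limits the precision.

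The genes and lists were chosen with earlier results of these data known. Array values are given for the largest called rises at 24 h (up to 6 replication and 6 mitosis genes), up to 4 members at each other time or called in the 72 h minus 24 h comparison, the 4 regulators and the 2 smallest changes at 24 h per list; other lists name up to 4 genes per direction and time, plus Cdkn1a and Myc. Further array values (Mcm5, Mcm7, Pcna and others) were added after they were seen. The pipeline was tested on simulated data. Alternatives were pseudocounts of 4 and 64, no filter, median centring, no normalization, no trend, fits of the compared groups only, any probe set of a gene, a replicate block and each array left out. Gene names came from the platform annotation with symbols updated, and promoters from RefSeq (GRCr8).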

Additional observations from a re-analysis of the deposited data

Results flagged for a closer look

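An array stood far from the others of its group, by a gap test at the 95% level, in 19 of 176 group tests (10.8%). Independent tests would flag about 1 in 20 by chance. These tests share the same arrays and are not independent, so 10.8% cannot be compared with that rate. In the isoproterenol group of 24 h, replicate 3 was the low array for Cdc20 (5.22), Cdk1 (6.11), Cdt1 (6.92), Fen1 (6.43), Mcm6 (7.41), Mcm7 (7.57), Melk (5.52) and Rrm1 (8.10), and for the median difference of the replication genes from vehicle (0.61, where the other 3 arrays had 1.44 to 1.56). In the same group replicate 1 was high for Uhrf1 (6.88). In the isoproterenol group of 72 h, replicate 3 was high for Fen1 (6.56) and Hmmr (6.49), and replicate 1 was low for Mcm5 (6.45). At 1 h, low values were those of Ccnb1 in replicate 1 (5.33) and Mcm6 in replicate 3 (5.69), and Hmmr was high in replicate 5 (5.40). At 3 h, replicate 1 was low for Cdc20 (4.28) and Pcna (9.85), and replicate 2 was high for Mcm3 (5.21).

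The isoproterenol effect differed between times in limma's test of the difference, adjusted over all probe sets, for 13 members between 24 and 3 h. The differences, in 24 h minus 3 h, were 1.34 for Mcm2, 2.75 for Mcm3, 1.61 for Mcm4, 1.21 for Mcm5, 1.81 for Mcm6, 1.93 for Mcm7, 1.80 for Cdt1, 2.00 for Fen1, 1.85 for Mki67, 1.33 for Top2a, 1.06 for Kif11, 1.93 for Plk1 and 2.55 for Ccna2. In 72 h minus 24 h they were -1.05 for Mcm5 and -1.25 for Cdt1.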

How the results depend on the processing

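No change that was called reversed its sign under the alternatives in which signs were compared. They were not compared where any probe set of a gene counted. The second probe set of Kif11, a gene called at 24 and 72 h, had uncalled changes of -0.03 and -0.26 at these times. Counts of members called at 24 h (23), at 72 h (19), for 24 h minus 3 h (13) and for 72 h minus 24 h (2) moved as follows. Without normalization, where the median of all genes shifts by 0.533 at 24 h and 0.462 at 72 h, they were 36 at 24 h, 24 for 24 h minus 3 h and 0 for 72 h minus 24 h, and the count at 1 h fell from 1 to 0; the replication medians were then 1.916 at 24 h and 0.7648 at 72 h, and the mitosis median at 24 h was 1.379. With arrays centred on their medians the count at 1 h was 0. With only the compared groups in the fit it was 2 at 1 h (Pcna higher and Mcm7 lower), 10 at 72 h and 0 for 72 h minus 24 h. At 3 h it was 2 where any probe set of a gene counted (Ccnd1 and Tk1, both lower) and 1 with a pseudocount of 4 (Mcm3, lower). A pseudocount of 64 lowered the mitosis median at 72 h to 0.3941. With each array left out, counts ranged from 0 to 1 at 1 h and at 3 h, 16 to 32 at 24 h, 8 to 25 at 72 h, 9 to 21 for 24 h minus 3 h, 0 to 5 for 72 h minus 24 h and 0 to 0 among vehicle groups. Replication medians ranged from 1.122 to 1.432 at 24 h and 0.2404 to 0.4388 at 72 h, and mitosis medians from 0.7182 to 0.9611 and 0.6845 to 1.004. Beyond the scaling and the samples or probe sets each alternative changes, the cause was not tested.

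Replicate numbers were also fitted as a block, although same-numbered vehicle and isoproterenol arrays deviated together (r over 0.1) in only 2 of 12 pairs. Little sign of pairing by number was seen on this measure, which cannot show that the samples were unpaired. With the replicate block 20 members were called at 24 h, 14 at 72 h, 13 for 24 h minus 3 h, 2 for 72 h minus 24 h, 1 at 1 h and 0 at 3 h. Groups of 3 to 5 arrays limit the precision, and genes near the filter level carry compressed changes.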
